A study of Mus musculus with 4 samples.

Results

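Runx2 binding was examined at 10 genes of the fibroblast growth factor (FGF) family that are active in bone, the 4 receptor genes Fgfr1, Fgfr2, Fgfr3 and Fgfr4 and the 6 ligand genes Fgf1, Fgf2, Fgf7, Fgf9, Fgf18 and Fgf23. Every peak that overlapped the gene body of GENCODE version M1, widened by 20 kb on each side, was taken. By this rule the 10 genes received 90 of the 25457 day 0 peaks, 219 of the 60596 day 9 peaks and 173 of the 40330 day 28 peaks, or 255 of 67703 regions after overlapping peaks (1 bp or more in common) had been joined across time points. Most of these regions were not at FGF genes. A single Fgfr2 transcript, ENSMUST00000124096, which the annotation tags as read-through, stretches the gene body to 3.01 Mb and across 32 other genes, and it alone brought in 176 regions. Without it the Fgfr2 body is 104 kb long, and the 10 loci had 27 day 0 peaks, 62 day 9 peaks, 56 day 28 peaks and 79 merged regions. These 79 regions are described here.

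The cells were MC3T3-E1 subclone 4, 1 clone of a preosteoblast line derived from the calvaria of C57BL/6 mice. Chromatin of proliferating preosteoblasts (day 0), matrix-depositing cells (day 9) and mineralizing cells (day 28) was precipitated with the Runx2 antibody M70, and osteogenic differentiation was induced with ascorbic acid and beta-glycerophosphate. At each time point 2 replicate libraries were pooled by the authors before peaks were called against input DNA of day 9 cells, so there is 1 list per time point, and a change over time could be given neither a replicate spread nor a test. Runx2 is the transcription factor on which osteoblast differentiation depends. The files held peaks and no RNA levels, so the labelled cell stages could not be checked against marker expression. The lists placed 13, 24 and 19 peaks (days 0, 9 and 28) within 20 kb of Runx2 itself and 5, 13 and 8 at Sp7. Bglap2, which encodes osteocalcin, had 0, 12 and 10, and Ibsp, which encodes bone sialoprotein, had 1, 5 and 6. The median over all protein-coding genes was 1, 2 and 2. Of all genes 60.3% had more peaks at day 9 than at day 0, so these counts do not check the stages.

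FGF ligands signal by bringing 2 receptor tyrosine kinases together on the cell surface, most of them with heparan sulfate as a cofactor, and the activated receptors recruit adaptors that switch on the Ras-MAPK, PLC gamma and PI3K pathways. In the skeleton Fgfr1 and Fgfr2 act in osteoprogenitors and osteoblasts and Fgfr3 restrains the growth of cartilage, and activating mutations of these receptors cause craniosynostosis or dwarfism. Fgf2, Fgf9 and Fgf18 act locally on bone and cartilage cells, whereas Fgf23 is a hormone of osteocytes that lowers blood phosphate.

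The sequence at the centre of a peak shows whether the Runx core motif, TGTGGT or its reverse complement ACCACA, lies under it. The 6 sequences that follow are from regions with the motif within 50 bp of the centre of their highest-ranking peak. Each spans 101 bases of the plus strand of mm9 (NCBIM37), 50 bases to each side of that centre, with the motif in capitals. The centre is the midpoint of the called peak, which need not be its point of highest signal. They were chosen as the motif-bearing region with the highest rank at Fgf2, Fgfr1, Fgfr2 and Fgf7, the Fgfr4 exon with cores on both strands, and the only region at Fgf23.

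Fgf2 intron 1, chr3:37259776-37259876: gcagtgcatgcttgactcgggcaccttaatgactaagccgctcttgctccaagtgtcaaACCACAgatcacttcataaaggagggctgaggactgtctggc

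Fgfr1 intron 2, chr8:26653670-26653770: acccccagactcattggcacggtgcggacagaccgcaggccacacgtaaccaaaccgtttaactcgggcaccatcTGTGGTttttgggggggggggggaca

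Fgfr2 intron 5, chr7:137367953-137368053: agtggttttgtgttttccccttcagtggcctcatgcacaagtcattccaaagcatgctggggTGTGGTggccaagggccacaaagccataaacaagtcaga

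Fgf7 intron 1, chr2:125864918-125865018: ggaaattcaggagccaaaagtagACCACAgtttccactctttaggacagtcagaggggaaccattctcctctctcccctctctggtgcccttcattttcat

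Fgfr4 exon 7, chr13:55261304-55261404: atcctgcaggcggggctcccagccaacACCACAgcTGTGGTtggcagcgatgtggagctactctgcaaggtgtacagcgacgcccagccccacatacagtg

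Fgf23 upstream, chr6:127007483-127007583: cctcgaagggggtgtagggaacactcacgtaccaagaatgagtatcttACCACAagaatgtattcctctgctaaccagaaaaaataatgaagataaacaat

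The centre of the motif lay 12 bp from the peak centre at Fgf2, 28 bp at Fgfr1, 15 bp at Fgfr2, 1 bp at Fgf23 and, on the other side of the centre, at -24 bp at Fgf7 and -12 bp at Fgfr4. At Fgfr4 the exon carried 2 cores, ACCACA and TGTGGT, on opposite strands and 2 bases apart (the gc between the capitals). The peaks that ranked highest at the start sites had no such core in this window. Their regions did hold cores farther from the centre, the nearest at 57 bp at Fgfr1, -947 bp at Fgfr2, 455 bp at Fgfr3 and 310 bp at Fgf18. The next 3 sequences are windows without a core, with CpG pairs in capitals. They come from the far upstream region of Fgfr3 and from the start-site regions of Fgfr3 and Fgf18. The start-site windows hold no annotated start. They are centred 442 bp past the main Fgfr3 start and 666 bp before the Fgf18 start.

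Fgfr3 upstream, chr5:34044707-34044807: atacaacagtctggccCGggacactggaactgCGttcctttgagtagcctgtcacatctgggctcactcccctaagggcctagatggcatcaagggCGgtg

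Fgfr3 start site, chr5:34064765-34064865: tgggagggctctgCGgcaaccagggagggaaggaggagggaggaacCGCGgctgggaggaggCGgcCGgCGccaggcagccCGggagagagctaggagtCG

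Fgf18 start site, chr11:33048016-33048116: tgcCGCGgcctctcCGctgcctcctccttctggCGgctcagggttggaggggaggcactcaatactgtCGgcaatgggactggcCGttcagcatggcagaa

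These windows held 3, 8 and 6 CpG pairs and a GC content of 57.4%, 73.3% and 64.4%.

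Of the 79 regions, 24 were bound at days 9 and 28 (30.4%, exact 95% interval 20.5 to 41.8), 17 at day 9 only (21.5%, 13.1 to 32.2), 16 at all 3 time points (20.3%, 12.0 to 30.8), 11 at day 28 only (13.9%, 7.16 to 23.5), 7 at day 0 only (8.86%, 3.64 to 17.4), 2 at days 0 and 28 and 2 at days 0 and 9. Among the 53216 regions in the windows of all protein-coding genes the same patterns took 21.3%, 33.8%, 30.0%, 6.97%, 4.53%, 1.76% and 1.61%. Intervals are Clopper-Pearson and cover counting error only, and neighbouring regions of a gene are not independent. By their centres 48 of the 79 regions lay in introns, 8 in exons, 9 in upstream regions, 9 between genes, 3 in promoters and 2 just past a transcript end. The centre was within 1 kb of a start site of its FGF gene in 12 regions and over 5 kb from every such start in 55.

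**Figure D1:**
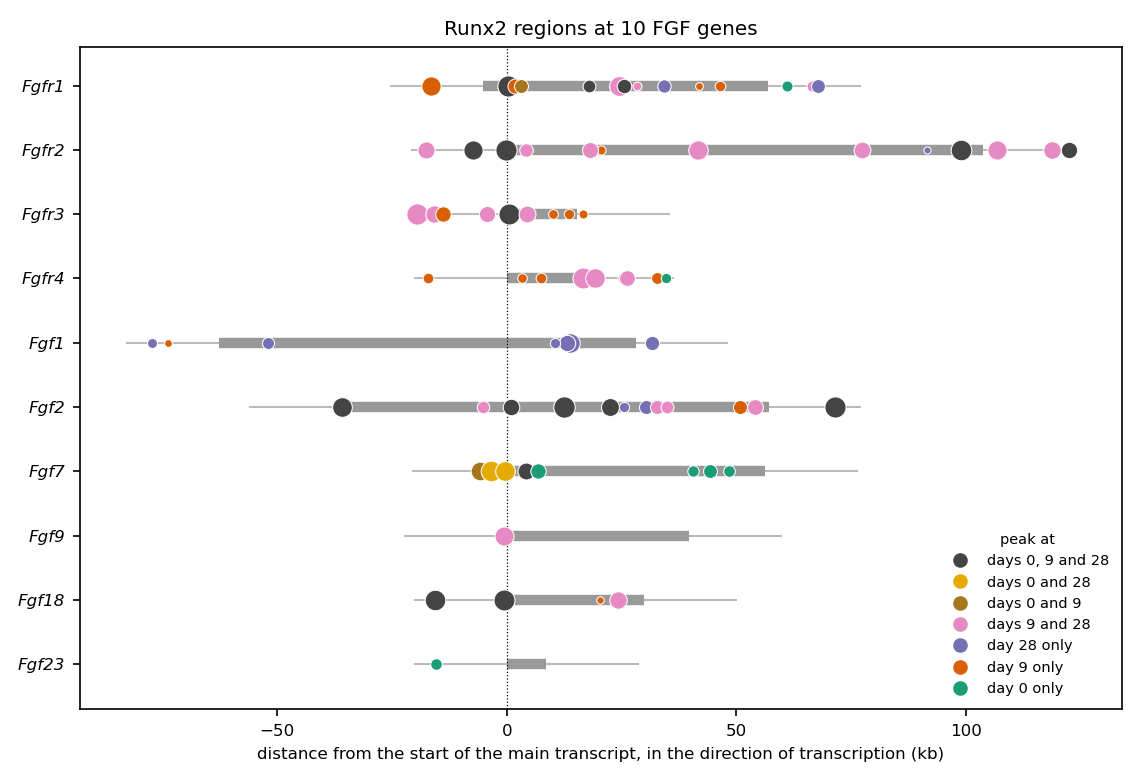
Positions of the 79 Runx2 regions along the 10 loci, in kb from the start of the transcript with the longest coding sequence; thick bars are gene bodies, thin lines the 20 kb on each side, colours give the time points with a peak, and larger points have a higher best percentile. At Fgf1 6 of 7 regions were bound at day 28 only, at Fgf7 4 of 8 at day 0 only, and at the receptors 18 of 46 at days 9 and 28.

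At day 0, 8 of the 10 genes had a peak in their window, against 65.0% of all 22366 protein-coding genes. At day 9 it was 9 of 10 against 77.0%, and at day 28 again 9 of 10 against 71.2%. Fgf1 and Fgf9 had none at day 0, and Fgf23 had none at days 9 and 28. A peak overlapping the 1 kb on either side of a start site was present at 6 genes at day 0, 6 at day 9 and 9 at day 28, where the background was 43.6%, 53.2% and 51.1% of genes. Every annotated start was used, and Fgfr1 and Fgfr2 have 6 each. At day 28 Fgf1 and Fgfr4 were counted through a start other than that of their main transcript.

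**Figure D2:**
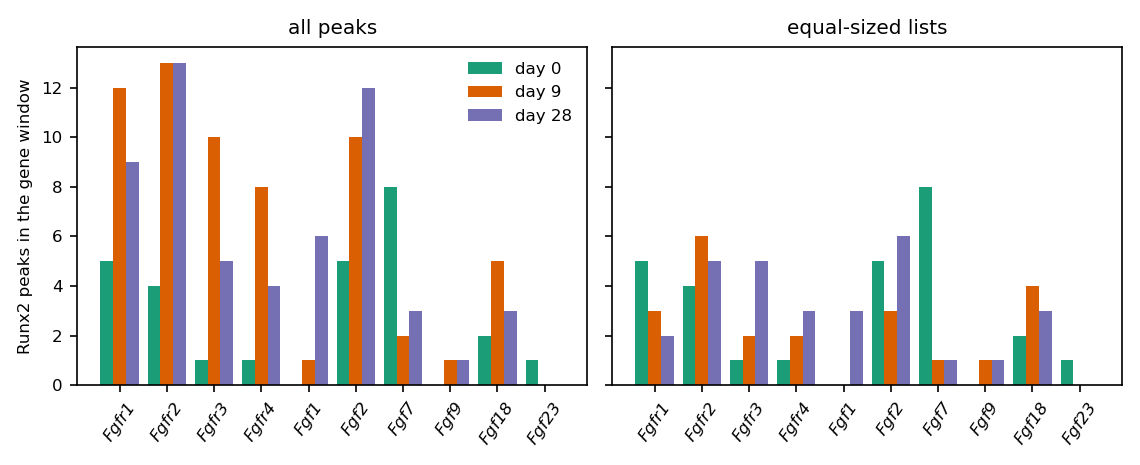
Number of Runx2 peaks in the window of each gene at day 0, day 9 and day 28, in the full lists (left) and in lists cut to the 25457 highest-scoring peaks (right). The day 0 list, the shortest, is the same in both panels, and the day 9 bars of the receptors shrank from between 8 and 13 to between 2 and 6.

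At days 0, 9 and 28 the receptor windows held 11, 43 and 31 peaks and the ligand windows 16, 19 and 25. With each list limited to its 25457 highest-scoring peaks, the number in the day 0 list, these counts became 11, 13 and 15 and 16, 9 and 14, so the day 9 maximum of the receptors and the rise of the ligands were not seen in lists of equal size. These counts and the densities below include peaks of regions nearer to the start of another gene (9 of the 79). Among the ligands these include the start-site regions of Cetn4, Spata5 and Npm1, each called at days 0, 9 and 28. In the full lists the pooled receptor windows held 3.07, 12.0 and 8.66 peaks per 100 kb and the pooled ligand windows 2.86, 3.39 and 4.46. The median density per gene in these lists was 2.42, 7.34 and 5.86 for the 10 genes and 1.69, 3.49 and 2.33 for all genes. A day 9 peak was part of 41 of 46 receptor regions (89.1%, 76.4 to 96.4) and of 18 of 33 ligand regions (54.5%, 36.4 to 71.9). The share over the windows of all protein-coding genes was 86.7%. Most ligand regions without a day 9 peak were at Fgf1, with 1 day 9 peak and 7 regions, and at Fgf7, with 2 and 8. Regions of a gene are not independent, so these intervals do not compare ligands with receptors as classes. More peaks at day 9 than at day 0 were found at 8 of the 10 genes, where the background was 60.3%. In equal-sized lists it was 5 of 10, with a background of 22.9%. The opposite, more peaks at day 0 than at day 9, was then found at 4 of 10, with a background of 20.9%. A gene with equal counts, such as 1 without peaks, falls in neither share. The FGF genes held more peaks, with a median of 6.5 at day 9 in the full lists against 2 over all genes.

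Peak strength is given by the authors' score, which is −log10 of the p-value from MACS multiplied by 10 and is never under 100. It depends on read depth, which the lists do not hold and which by the study's methods was not the same at each time point, so a peak is described by the percentile of its score within its own list. The lists differ in length at the same p-value cutoff, so a percentile is not on the same scale at each time point. Of the regions at all genes in both lists, 77.4% ranked higher at day 9 than at day 0, and 71.8% higher at day 9 than at day 28. FGF peaks ran from the 0.106 to the 95.5 percentile at day 0 (median 34.5), from 1.14 to 94.9 at day 9 (median 45.4) and from 1.55 to 93.3 at day 28 (median 37.9). The 90th percentile was reached in some list by 8 of the 79 regions, with a background of 11.7% of regions at all genes. They were the start sites of Fgfr1, Fgfr2, Fgfr3 and Fgf18, the far upstream region of Fgfr3, the 3′ end of Fgfr4, an intron of Fgf2 and the Spata5 promoter within the Fgf2 window.

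**Figure D3:**
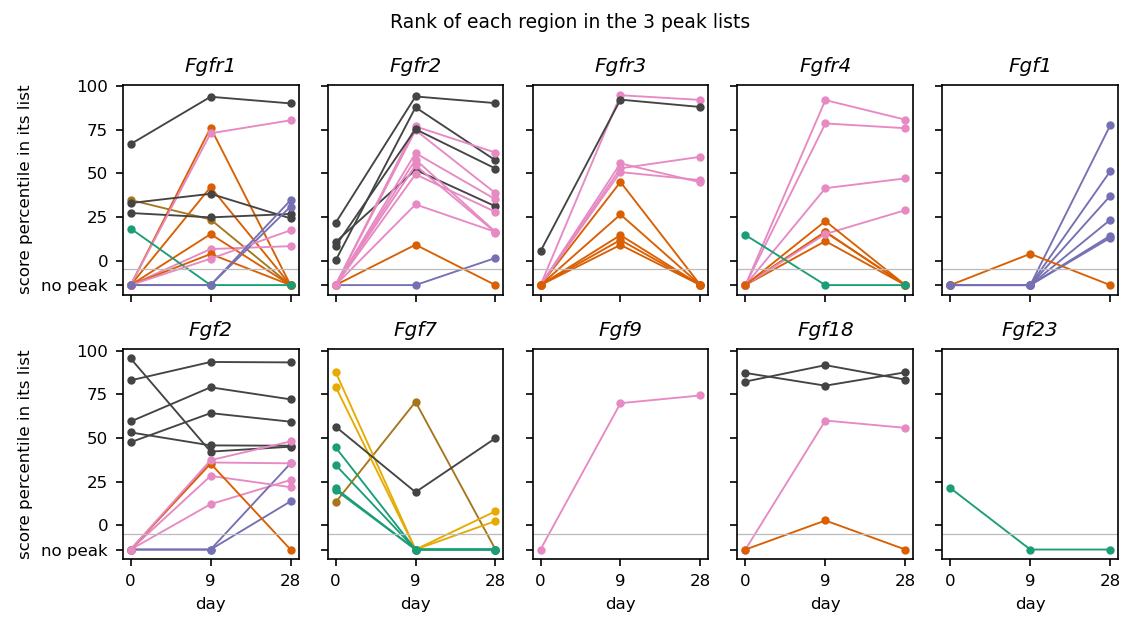
Percentile of each region within the day 0, day 9 and day 28 lists, with 1 line per region and points under the grey line where a list had no peak; colours are those of the map. The start-site regions of Fgfr1, Fgfr2 and Fgfr3 stood above the 88th percentile at days 9 and 28, and the top lines at Fgf7 and the steepest line at Fgf2 fell from day 0.

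Fgfr1 (ENSMUSG00000031565, chr8:26624126-26686186, plus strand) encodes the main receptor of mesenchymal FGF signals in the osteoblast lineage. Its window held 5, 12 and 9 peaks at days 0, 9 and 28, in 14 regions. In equal-sized lists it had 5, 3 and 2, so the order of the time points turned. The strongest, chr8:26628566-26630369, covered the first exon of the main transcript, with its centre 204 bp past the start site. It scored 418 at day 0 (percentile 66.8), 2680 at day 9 (94.0) and 1908 at day 28 (90.2). It was thus in the upper part of all 3 lists, and it was the only region at Fgfr1 above the 90th percentile. A second peak near the start sites, chr8:26630837-26631501 in intron 1, was found at day 9 alone (213, percentile 42.2).

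Away from the start, a region 16535 bp upstream of the main start site of Fgfr1, chr8:26612352-26613105, was called at day 9 only, yet ranked high in that list (779.5, percentile 76.2). Intron 2 held 5 regions. Of these chr8:26653349-26654229, shown above, scored 661 at day 9 (73.0) and 1117 at day 28 (80.5) and had no day 0 peak. It was the strongest region of the gene away from the start site. The weak neighbour chr8:26654428-26655024, also with the core motif, was called in all 3 lists (percentiles 33.0, 38.3 and 24.3). The last 4 regions of the window lay nearer to the start of Letm2, a mitochondrial inner membrane protein gene, and ranked no higher than the 34.6 percentile.

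Fgfr2 (ENSMUSG00000030849, minus strand, chr7:137306026-137410322 without the read-through transcript), the receptor mutated in several craniosynostosis syndromes, had 4, 13 and 13 peaks in 13 regions. In equal-sized lists it had 4, 6 and 5 peaks. The start-site region chr7:137408377-137410250, centred 89 bp before the main start, went from a score of 149 at day 0 (percentile 21.6) to 2732 at day 9 (94.1) and 1933 at day 28 (90.3). The other 3 regions with a day 0 peak also sat low in that list, at the 0.106, 8.36 and 10.6 percentile. A region in intron 17, near the 3′ end and 98874 bp from the start, chr7:137310485-137311482, had percentiles of 0.106, 87.9 and 57.5 at days 0, 9 and 28. In all 11 Fgfr2 regions present at both later times the percentile was higher at day 9 than at day 28. Over the 10 loci it was 27 of 40 regions, and in the windows of all protein-coding genes 71.8% of regions. Against day 0, 12 of 18 regions ranked higher at day 9 (77.4% at all genes) and 11 of 18 higher at day 28 (70.8%).

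The further Fgfr2 regions followed the same order. Intron 5 held chr7:137367739-137368281, shown above with its core motif, at 813.5 (77.0) on day 9 and 509 (62.0) on day 28. A second annotated start near exon 2 was covered by chr7:137405120-137405672 (percentiles 32.3 and 16.5). Upstream, chr7:137416578-137417505 lay 7320 bp before the main start and went from the percentile 8.36 at day 0 to 75.4 at day 9 and 52.8 at day 28. Day 28 alone added 1 region, at the 1.55 percentile.

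Fgfr3 (ENSMUSG00000054252, chr5:34064373-34079716, plus strand), the receptor that limits growth plate proliferation, had the densest day 9 binding of the 10 genes in the full lists, 18.1 peaks per 100 kb, which was at the 95.3 percentile of all genes. Its window held 1, 10 and 5 peaks in 10 regions, but 1, 2 and 5 in equal-sized lists, where day 28 exceeded day 9. The start-site region chr5:34063992-34065672 was near the bottom of the day 0 list (111, percentile 5.43) and near the top of the others (2267, 92.3 at day 9 and 1677, 88.1 at day 28). The highest rank of any FGF region at day 9 belonged to chr5:34044073-34045435, 19616 bp upstream of Fgfr3. It scored 2963 at day 9 (94.9) and 2198 at day 28 (92.2) and had no day 0 peak. Its peak reached the edge of the window used here, and the 10 kb window leaves it out. A small day 9 peak, chr5:34063451-34063947, sat 674 bp before the start (150.1, percentile 26.5). None of the 10 Fgfr3 regions had the core motif within 50 bp of the centre, which allows a share of up to 30.8% (upper limit of the exact interval), and the nearest core of the far upstream region was 154 bp away.

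Fgfr4 (ENSMUSG00000005320, chr13:55254001-55270120, plus strand) encodes a receptor best known for bile acid control in the liver. It differed from the other receptors in that no peak covered its main start site at any time. Its 1, 8 and 4 peaks (1, 2 and 3 in equal-sized lists) made up 9 regions, and the strong ones lay at and past the 3′ end. The region chr13:55270104-55270912 at the end of the gene, 16555 bp from the main start, scored 2210.2 at day 9 (92.1) and 1138 at day 28 (80.8). The next, chr13:55272716-55273751, scored 897 (78.7) and 908 (76.0). These peaks lay 1388 and 4024 bp past a second annotated start near the last exons, the one that brought Fgfr4 into the day 28 count of start-site peaks. Inside the gene only weak day 9 peaks were called, in intron 2 (percentile 11.2) and over exon 7 (16.4), the exon shown above with 2 cores.

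Among the ligands, Fgf7 showed the reverse time course. Fgf7 (ENSMUSG00000027208, chr2:125860394-125916921, plus strand), or keratinocyte growth factor, is made by mesenchymal cells and acts through the epithelial form of Fgfr2. Its window held 8, 2 and 3 peaks (days 0, 9 and 28) in 8 regions, and 4 of them were called at day 0 only. The day 0 density was at the 94.8 percentile of all genes, the day 9 density at 36.5. More peaks at day 0 than at day 9 occurred in 3.98% of all genes, and among the 10 FGF genes at Fgf7 and Fgf23. The day 0 list is the shortest, so lists of equal size leave its 8 peaks as they were and shorten the others, here to 1 at each later time. The background was then 20.9% of genes, and Fgf2, Fgf7, Fgf23 and Fgfr1 met it.

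The Fgf7 start site lay within a broad day 0 peak, chr2:125858457-125862368, which at 3912 bp was far wider than the median day 0 peak of 917 bp. It scored 604 at day 0 (percentile 79.4), was not called at day 9, and returned at day 28 as a peak with a score of 116 (7.93). The strongest day 0 region, chr2:125856736-125857883, 3399 bp upstream, followed the same course, 852 at day 0 (87.8) and 104 at day 28 (2.29) with no day 9 peak. Intron 1 held chr2:125863966-125865970 with the core motif, at 318 (56.5), 131 (18.9) and 329.8 (49.9) at days 0, 9 and 28. The exception was chr2:125854309-125855435, 5796 bp upstream, which rose from 126 at day 0 (13.1) to 588 at day 9 (70.7) and was absent at day 28. A longer annotated gene, 4930525F21Rik, overlaps the Fgf7 locus, and its start was farther from each of the 8 regions than that of Fgf7.

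Fgf2 (ENSMUSG00000037225, chr3:37211441-37304299, plus strand), a mitogen stored in bone matrix, had 5, 10 and 12 peaks in 12 regions, and 5, 3 and 6 peaks in equal-sized lists. The highest rank of any FGF peak at day 0 was in its intron 1, at chr3:37259369-37260251, 12558 bp past the main start. It scored 1493 at day 0 (95.5) but 213 at day 9 (42.1) and 284 at day 28 (45.0), and it is the first sequence shown above. No other Fgf2 region fell in rank as far. The start-site region chr3:37247039-37248649 was in the middle of all 3 lists (292, 53.1; 234, 45.7; 289, 45.5), and chr3:37279364-37280812, at a second start inside the gene, was called at day 9 (183, 35.9) and day 28 (216, 35.4).

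The intron 1 region chr3:37269225-37270009 of Fgf2, with 2 cores on the same strand within 50 bp, ranked at 47.5, 64.2 and 59.3 at days 0, 9 and 28. Day 28 alone added 2 regions in intron 1, at the 13.6 and 35.3 percentile, and day 28 outnumbered both other days at Fgf2 and at Fgf1. In 5.42% of all genes day 28 had the most peaks (6.57% had more at day 28 than at day 9, among the FGF genes Fgf1, Fgf2 and Fgf7). In equal-sized lists day 28 had the most at 4 of 10 FGF genes with a background of 8.50%, and more than day 9 at 4 of 10 with 16.4%. Genes without peaks cannot meet either condition, which lowers these backgrounds. Of the 12 regions, 3 were nearer to other genes. The Cetn4 start at chr3:37210812-37211902 ranked at 59.4, 79.0 and 72.1. The shared promoter of Nudt6, which is antisense to Fgf2, and Spata5 at chr3:37317624-37320156 ranked at 83.0, 93.5 and 93.3, the strongest region of the window at days 9 and 28.

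Fgf18 (ENSMUSG00000057967, chr11:33017430-33047400, minus strand), a ligand needed for normal ossification of the skull and long bones, had 2, 5 and 3 peaks in 4 regions. Its start-site region chr11:33047079-33048972, centred 666 bp before the start, was strong at all times, scoring 673 on day 0 (82.3), 2149.9 on day 9 (91.7) and 1291 on day 28 (83.4). No other FGF start site ranked as high at day 0. In intron 4, chr11:33022359-33023544 was called at day 9 (371, 60.0) and day 28 (402, 55.8). A region 15522 bp upstream, also bound throughout (87.2, 79.9 and 87.6), covered the start of Npm1, the nucleolar protein nucleophosmin.

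Fgf9 (ENSMUSG00000021974, chr14:58689384-58731174, plus strand), a ligand of early skeletal patterning, had a single region. It lay 500 bp before the main start, chr14:58690726-58691319, with 566 at day 9 (69.9) and 845 at day 28 (74.3) and no day 0 peak. Around its centre 34 CpG pairs fell within 201 bp. Fgf23 (ENSMUSG00000000182, chr6:127022920-127031426, plus strand) had 1 weak day 0 peak 15387 bp upstream, chr6:127007047-127008018, with a score of 147 (21.2), which carried the core motif 1 bp from its centre. No peak passed the p-value of 1e-10 in the Fgf23 gene body in any list. Within 50 kb on each side Fgf23 had 3, 2 and 1 peaks.

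Fgf1 (ENSMUSG00000036585, minus strand), a ligand that binds every FGF receptor, was bound late. Of its 7 regions 6 were called at day 28 only and 1 at day 9 only, and none at day 0. The strongest was in intron 2, 13668 bp past the start of the main transcript, with a day 28 score of 976 (percentile 77.6). The next region, in the same intron, had 346 (51.3), and a peak 28 bp before another annotated start had 161 (23.4). The other 3 day 28 regions had percentiles of 37.2, 14.3 and 13.1, and the day 9 peak was at 3.93. In equal-sized lists Fgf1 had 0, 0 and 3 peaks. The annotation places Arhgap26 over the whole stretch, so each of these regions also lay in an Arhgap26 intron.

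The core motif lay within 50 bp of the centre in 8 of 27 FGF peaks on day 0 (29.6%, 13.8 to 50.2), 14 of 62 on day 9 (22.6%, 12.9 to 35.0) and 9 of 56 on day 28 (16.1%, 7.62 to 28.3). In flanks from 450 to 550 bp on both sides, which together cover about 2 times as many bases, it was found in 18.5% (6.30 to 38.1), 9.68% (3.63 to 19.9) and 10.7% (4.03 to 21.9). Centre and flank intervals overlapped at every time point, but both come from the same peaks, so this overlap does not compare centre with flanks. Over all peaks the centre held it in 16.0%, 25.4% and 20.9% and the flanks in 12.7%, 13.9% and 13.3%. With 27 to 62 peaks a difference between the FGF loci and all peaks was not detectable at this depth.

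**Figure D4:**
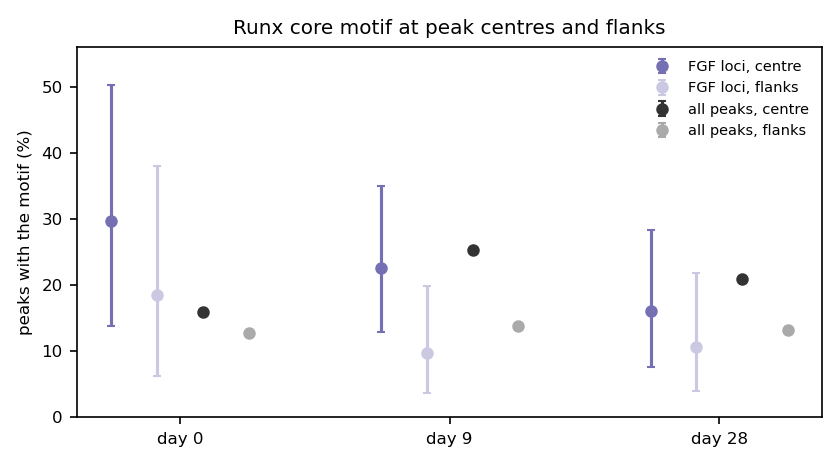
Share of peaks (%) with TGTGGT on either strand within 50 bp of the peak centre or in the flanks, for peaks at the FGF loci and for all peaks at each time point; bars are exact 95% intervals. The FGF intervals are wide and include the values of all peaks.

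The motif was divided by distance from start sites. None of the 12 regions within 1 kb of a start of their FGF gene had the core at the centre, which allows a share of up to 26.5%. Some of them held a core farther out, as at Fgfr1, 57 bp from the centre. Within 1 kb of any protein-coding start a core at the centre was found in 0 of 15 FGF regions (up to 21.8%) and 6.82% of regions at all genes. Farther away it was 15 of 64 (23.4%, 13.8 to 35.7) and 28.1%. Of the 8 regions above the 90th percentile the Fgf2 intron had it (12.5%, 0.316 to 52.7), against 14.9% of regions of that rank at all genes. Among day 9 FGF peaks it was in 1 of 18 at a score of at least 500 (5.56%, 0.141 to 27.3) and in 0 of 8 at a score of at least 1000 (up to 36.9%). Over all day 9 peaks the shares were 20.03% and 17.6%, within these intervals.

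Motifs of other factors were searched as letters in either orientation, up to 100 bp from the centre, and a match does not show that a factor was bound. Away from start sites the AP-1 letters TGANTCA were in 1 of 64 FGF regions (1.56%, 0.0396 to 8.40), against 8.93% at all genes, and the TEAD letters GGAATG in 8 of 64 (12.5%, 5.55 to 23.2), against 13.0%. The regions of Fgfr1 intron 2 and Fgfr2 intron 5 shown above were among those with GGAATG. At start sites the Sp/Klf letters CCGCCC were in 7 of 15 (46.7%, 21.3 to 73.4), against 49.7%, and the ETS letters CCGGAAG in 1 of 15, against 9.67%. The CRE letters TGACGTCA were in 0 of 15 and 0 of 64, against 1.24% and 0.284%.

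The rest of the pathway was described with a list of 47 genes, of which 46 matched the annotation. A day 0, day 9 or day 28 peak was found at 33, 37 and 36 of the 46, and 26 had more peaks at day 9 than at day 0 while 2 had fewer (60.3% and 3.98% of all genes). Over all genes 65.0%, 77.0% and 71.2% had such a peak. The 16 further Fgf genes, listed under other ligands, were the least bound group. A day 9 peak was present at 8 of them, with a median of 0.5 peaks. Fgf22 had the most day 9 regions, 7, and Fgf3, Fgf4, Fgf5, Fgf10, Fgf12, Fgf13, Fgf14 and Fgf16 had none, although the windows of Fgf12, Fgf13 and Fgf14 spanned 325, 546 and 739 kb. Fgf8 had 3, 3 and 5 peaks at days 0, 9 and 28.

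**Figure D5:**
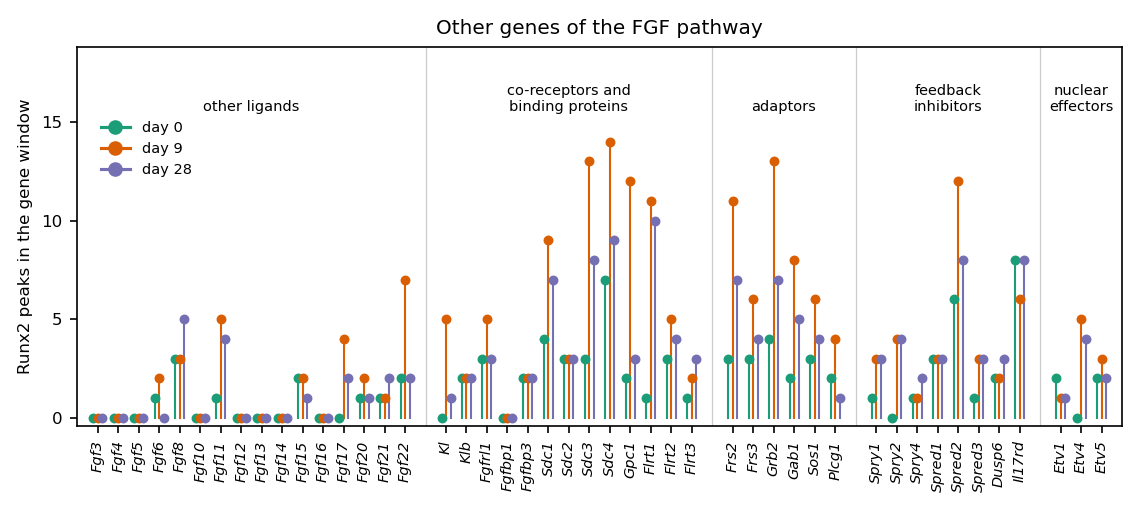
Runx2 peaks in the windows of 46 other genes of the FGF pathway at day 0, day 9 and day 28, grouped by role. Many of the further Fgf genes (headed other ligands) have no peak, whereas each adaptor gene has at least 4 at day 9. Il17rd and Etv1 have more at day 0 than at day 9.

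Co-receptors and binding proteins had a day 9 peak in 12 of 13 genes (77.0% of all genes), with a median of 5 peaks (2 over all genes). The heparan sulfate carriers Sdc3 and Sdc4 had the most day 9 regions, 13 each, and Fgfbp1, which releases FGFs from the matrix, had none. Kl, the co-receptor that gives Fgf23 its affinity, had 0, 5 and 1 peaks, and Klb had 2 at each time. All 6 adaptors had peaks at every time point, also within 1 kb of a start site, with a median of 7 at day 9. Over all genes 65.0%, 77.0% and 71.2% had a peak at days 0, 9 and 28. A peak within 1 kb of a start site was found at 43.6%, 53.2% and 51.1%. Grb2, which links receptors to Ras through Sos1, had the most (13 regions at day 9), and Plcg1, the phospholipase that binds activated receptors directly, had 4. Frs2, the main docking protein, had 3, 11 and 7 peaks.

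Feedback inhibitors that dampen FGF signals had a day 9 peak in 8 of 8 matched genes (77.0% of all genes), with a median of 3 peaks (2 over all genes). Spred2 had the most day 9 regions, 10, and Spry4 the fewest, 1. Il17rd (Sef), which blocks MAPK output, had 8, 6 and 8 peaks, and Dusp6, a phosphatase that inactivates ERK, had 2, 2 and 3. Among the nuclear effectors Etv4 had the most day 9 regions, 5, with 0, 5 and 4 peaks, Etv5 had 2, 3 and 2, and Etv1 had the fewest day 9 regions with 2, 1 and 1 peaks.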

How the data were processed

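ChIP-Seq with a Runx2 antibody was performed on MC3T3-E1 cells of days 0, 9 and 28. As the labels and methods state, the authors sequenced 36 bases from fragments of 200 ± 50 bp, aligned them to mm9 with Bowtie (version 0.12.8), called peaks with MACS (version 1.4.1) on 2 pooled libraries per time point against 2 input libraries, and kept peaks with a p-value under 1e-10. The deposited score is −log10 of the MACS p-value multiplied by 10, as the authors obtained it. The files give no read counts behind a peak. The study states raw read totals, which were highest at day 0. They were not used here, and neither were input reads.

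Peaks were merged where they shared at least 1 bp. Gene bodies, start sites and locations came from protein-coding genes of GENCODE M1 on the same assembly, with read-through transcripts left out after the data were seen. Promoters were the 1000 bp before and 150 bp after a start, upstream regions extended to 20 kb, and exons and then introns took precedence. Genes and lists were chosen with earlier results of these data known. The genes named were the 10 members, and in each the highest-ranking region, regions within 1 kb of a start, single-time-point regions above the median of their list, and pathway genes with the most and fewest day 9 regions. Others named, such as Fgf8, Kl, Klb, Frs2, Il17rd, Dusp6 and Etv5 and further regions of the 10 genes, were chosen after their values were seen. No test was made, since each time point has 1 list. Shares carry exact (Clopper-Pearson) 95% intervals. Overlaps, merging, motif search and intervals were tested on simulated data. Python 3.11.15, SciPy 1.17.1, NumPy 2.4.6, pysam and Matplotlib were used.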

Additional observations from a re-analysis of the deposited data

How the results depend on the processing

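The windows as the rule gives them held 90, 219 and 173 peaks at days 0, 9 and 28 and 255 regions, with the core motif at 30.6% of day 9 peak centres. Leaving out the Fgfr2 read-through transcript, an alternative chosen after seeing the data, gave 27, 62, 56, 79 and 22.6%. In the same order, with all transcripts and then without that one, a score of at least 200 left 49, 134, 103 and 153 against 12, 35, 33 and 44, a score of at least 500 left 21, 59, 53 and 69 (motif 20.3%) against 6, 18, 14 and 22 (5.56%), and a score of at least 1000 left 6, 37, 32 and 41 against 1, 8, 9 and 11 (0%). Equal-sized lists left 84, 93 and 139 (days 9 and 28 and regions) against 22, 29 and 45. Gene bodies alone moved the second set to 17 and 38 peaks (days 0 and 9) and 50 regions. Searching within 100 bp gave a motif share of 43.4% with all transcripts, and the motif with 1 more T gave 11.4% and 8.06%. The other windows (10 and 50 kb), the use of peak centres, joining peaks under 500 bp apart and a C in the motif moved no count by over 1.5 times and no share out of its interval. No paired analysis was possible because each time point has 1 pooled list, and for the same reason no replicate was left out.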
